A study of Homo sapiens with 12 samples.

Results

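The genes described here are 10 members of the Wnt signalling pathway: the ligands WNT6, WNT7B and WNT10A, the co-receptor LRP5, the receptor-removing ligases RNF43 and ZNRF3, the Dishevelled inhibitor DACT3, beta-catenin (CTNNB1), the scaffold AXIN2 and the transcription factor TCF7L2. They were taken by symbol from a table of 59324 genes, and all 10 were found. Expression was measured by RNA sequencing in MDA-MB-468, an established human triple-negative breast cancer cell line. There were 12 libraries in 4 groups of 3. The combination group received SAHA (10 µM, 12 h) together with sonidegib (10 µM, 72 h), the SAHA group SAHA alone for 12 h, the sonidegib group sonidegib alone for 72 h, and the control group neither drug. SAHA (vorinostat) inhibits histone deacetylases, and sonidegib inhibits Smoothened, the membrane protein that relays Hedgehog signals. The labels call sonidegib a pretreatment in the combination and do not state whether it stayed on during SAHA, how long control cells were kept, or whether the 3 libraries in each group are of separate cultures. P-values therefore measure the spread between these libraries, which may be technical.

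Wnt proteins are secreted lipid-modified ligands that bind a Frizzled receptor together with LRP5 or LRP6. In the absence of ligand, a destruction complex built on AXIN and APC has beta-catenin phosphorylated by GSK3 and degraded. When ligand engages the receptors, Dishevelled disables that complex, beta-catenin accumulates, and in the nucleus it joins TCF/LEF factors to switch on target genes. Some targets, among them AXIN2, RNF43 and ZNRF3, act as brakes on the same pathway. In the mammary gland Wnt signalling is known for its part in stem cells and duct growth.

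Levels are given as TPM, a share of all transcripts corrected for transcript length, so that levels of different genes can be set side by side. TPM keep no record of read depth, which is unknown. Changes are differences in log2(TPM + 1), each with its standard error (SE), from a limma fit of the 13937 genes that averaged 1 TPM or more across the 12 libraries. A gene is said to have risen or fallen where its Benjamini-Hochberg adjusted p over those genes was under 0.05. All 10 members passed this filter, DACT3 only through the libraries with SAHA. For genes at low TPM the added 1 understates the ratio between groups. Because fewer cells of a kind and less RNA per cell give the same reading in bulk RNA, these cannot be told apart.

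Epithelial markers were present in every library, with the sum of KRT8, KRT18, KRT19, EPCAM, CDH1 and EGFR at 4751 to 4897 TPM in the combination, 9492 to 9922 TPM with SAHA, 4806 to 5169 TPM with sonidegib and 8196 to 9069 TPM in control. The keratins made up most of that sum and other members differed from it. CDH1 stood at 32.14 to 35.92 TPM in the combination, 44.57 to 49.27 TPM with SAHA, 22.51 to 25.08 TPM with sonidegib and 18.41 to 23.02 TPM in control, and EGFR at 516 to 678 TPM over all libraries. Of the receptors that define the subtype, PGR was listed at 0 throughout and ESR1 reached at most 1.76 TPM. ERBB2 stood at 5.65 to 7.39 TPM in the combination, 3.05 to 4.62 TPM with SAHA, 22.51 to 26.33 TPM with sonidegib and 9.34 to 11.54 TPM in control. The fibroblast marker COL1A1 stood at 8.78 to 10.06 TPM in the combination, 10.26 to 12.84 TPM with SAHA, 4.34 to 6.98 TPM with sonidegib and 2.83 to 4.45 TPM in control, while LUM was listed at 0. Of the leukocyte markers PTPRC, CD3E and CD14, CD14 alone exceeded 1 TPM (206.9 to 336 TPM), and PTPRC did not exceed 0.01 TPM. For 5S ribosomal RNA, 17 genes were listed with a sum of 1488 to 12641 TPM across the 6 sonidegib-treated libraries, and each at 0 in the 6 others. In comparisons across these 2 sets of libraries, that difference and sonidegib cannot be told apart. For 5S RNA, only the comparison of SAHA with control and that of the combination with sonidegib stay within a set. Mitochondrial ribosomal RNA also moved with the groups, at 2.41% to 2.86% of TPM in the combination, 1.19% to 1.35% with SAHA, 2.06% to 2.48% with sonidegib and 0.565% to 0.6696% in control. The part of these markers and RNA shares in the results below was not tested. After rescaling without ribosomal RNA and mitochondrial genes, no called change of a member turned its direction. In limma the fall of AXIN2 with SAHA then lost its call (-0.34, adjusted p = 0.0513). ZNRF3 with SAHA (0.28, adjusted p = 0.0404) and RNF43 with sonidegib (0.52, adjusted p = 0.0434) gained one.

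The promoters of the neighbours WNT6 and WNT10A and of DACT3 are shown, because these were the ligands that fell in every comparison below and the member that was near 0 without SAHA. The sequences are those of RefSeq (GRCh38.p14), 250 bases before to 50 after the annotated start, with each copy of the GC box GGGCGG, on either strand, in capitals. WNT6 lies at chr2:218859555-218859854 on the plus strand, WNT10A at chr2:218880602-218880901 on the plus strand, and the upstream one of 2 DACT3 windows at chr19:46661133-46661432 on the minus strand. In the GENCODE annotation used for the gene coordinates below, WNT10A begins upstream of its window, at 218880363. The whole WNT10A window thus lies inside that gene, and the annotations place its start differently.
WNT6: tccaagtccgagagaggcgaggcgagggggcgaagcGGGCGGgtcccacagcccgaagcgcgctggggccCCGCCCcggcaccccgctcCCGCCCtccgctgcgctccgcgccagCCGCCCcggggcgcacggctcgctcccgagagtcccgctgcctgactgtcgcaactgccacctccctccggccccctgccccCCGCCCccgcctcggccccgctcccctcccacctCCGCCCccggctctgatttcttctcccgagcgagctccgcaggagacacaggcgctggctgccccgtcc
WNT10A: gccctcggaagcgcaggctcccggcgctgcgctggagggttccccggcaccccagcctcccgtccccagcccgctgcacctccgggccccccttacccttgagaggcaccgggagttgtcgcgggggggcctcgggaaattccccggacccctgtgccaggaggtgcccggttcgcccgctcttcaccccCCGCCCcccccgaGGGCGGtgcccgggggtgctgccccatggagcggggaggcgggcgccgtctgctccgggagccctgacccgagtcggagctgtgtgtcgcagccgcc
DACT3: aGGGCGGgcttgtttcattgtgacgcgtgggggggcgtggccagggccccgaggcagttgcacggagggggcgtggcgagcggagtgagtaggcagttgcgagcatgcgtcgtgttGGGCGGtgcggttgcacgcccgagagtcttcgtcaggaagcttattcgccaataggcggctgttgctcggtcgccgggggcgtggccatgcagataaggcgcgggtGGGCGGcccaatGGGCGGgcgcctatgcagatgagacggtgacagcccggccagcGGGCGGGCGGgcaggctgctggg

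The WNT6 window held 6 GC boxes and 37 CpG dinucleotides, the WNT10A window 2 and 30, and the DACT3 window 6 and 33, where overlapping boxes were counted separately. The other DACT3 window, not shown, held 1 and 8. Among the other members LRP5 had 3 and 52, CTNNB1 3 and 39, and the TCF7L2 windows 5 and 25, 0 and 7, and 0 and 5. The RNF43 windows held 0 boxes, with 0 and 5 CpG dinucleotides. Across 35116 promoter windows of this length 45.0% held at least 1 GC box on either strand, and the median number of CpG dinucleotides was 14. The letters CTTTGAT, a core that TCF/LEF factors recognise, were searched on both strands as well. They occurred in none of the 11 windows found for 7 of the members and in 2.62% of all windows. WNT7B, AXIN2 and ZNRF3 had no entry in the promoter table.

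WNT6 (ENSG00000115596, chromosome 2, 218859821 to 218874233, GRCh38) was the most abundant of the 3 ligands in control cells. It stood at 14.34, 13.06 and 14.75 TPM in the combination, 20.37, 17.92 and 18.31 TPM with SAHA, 65.34, 62.60 and 60.10 TPM with sonidegib, and 108.57, 114.14 and 110.09 TPM in control. No group overlapped another, and each of the 3 treated groups lay below control. Against control, WNT6 fell by 2.90 ± 0.066 on the log2 scale in the combination (adjusted p = 1.04e-10), by 2.50 ± 0.066 with SAHA (adjusted p = 3e-10) and by 0.81 ± 0.066 with sonidegib (adjusted p = 1.41e-06). The mean level in the combination was 12.7% of control, with SAHA 17.0% and with sonidegib 56.5%. Adding sonidegib to SAHA lowered it by a smaller step, with a log2 change of -0.40 ± 0.066 for the combination against SAHA (adjusted p = 0.000383), which was -0.27 after 75th percentile or quantile scaling.

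WNT10A (ENSG00000135925, chromosome 2, 218880363 to 218899581), a ligand of teeth, hair and skin development, begins 6129 bases beyond the end of WNT6 on the same strand. It stood at 2.32, 2.34 and 2.76 TPM in the combination, 6.91, 6.08 and 6.26 TPM with SAHA, 4.51, 4.66 and 4.94 TPM with sonidegib, and 12.81, 16.36 and 15.33 TPM in control. No group overlapped another here either, but the order of the single drugs was the reverse of that for WNT6. WNT10A fell by 2.18 ± 0.10 in the combination (adjusted p = 1.1e-08), by 1.09 ± 0.10 with SAHA (adjusted p = 3.53e-06) and by 1.47 ± 0.10 with sonidegib (adjusted p = 4.96e-07). The combination was lower than either single drug, by 1.10 ± 0.10 against SAHA (adjusted p = 6.02e-06) and by 0.72 ± 0.10 against sonidegib (adjusted p = 0.000264).

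The levels of the nearest protein-coding genes on either side put the groups in other orders. TTLL4, a tubulin-modifying enzyme upstream, averaged 39.8 ± 2.06 TPM in the combination, 25.0 ± 0.757 TPM with SAHA, 75.3 ± 4.09 TPM with sonidegib and 39.3 ± 3.42 TPM in control (SD, n = 3). CYP27A1, a sterol hydroxylase between TTLL4 and the pair, averaged 45.9 ± 1.97, 50.3 ± 7.26, 115 ± 3.14 and 35.6 ± 2.04 TPM in the same order of groups. CDK5R2, an activator of the neuronal kinase CDK5 and the nearest gene downstream, averaged 2.96 ± 0.364 TPM in the combination, 5.68 ± 0.698 TPM with SAHA, 0.383 ± 0.0815 TPM with sonidegib and 0.163 ± 0.0321 TPM in control. Thus CDK5R2 was higher in the SAHA and combination libraries, where WNT6 and WNT10A were at their lowest or lower than control. PRKAG3, FEV and CRYBA2, the other nearest genes, averaged under 1 TPM in every group.

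WNT7B (ENSG00000188064, chromosome 22, 45920362 to 45977129, minus strand) moved differently from the other 2 ligands. It stood at 19.17, 19.63 and 19.22 TPM in the combination, 37.06, 39.77 and 39.04 TPM with SAHA, 18.77, 18.10 and 18.72 TPM with sonidegib, and 22.73, 21.83 and 22.53 TPM in control. The 3 SAHA libraries lay above all others, and the combination libraries lay just above those with sonidegib alone and below control. WNT7B rose by 0.76 ± 0.053 with SAHA (adjusted p = 2.74e-07) and fell by 0.26 ± 0.053 with sonidegib (adjusted p = 0.00146). In the combination it fell by 0.20 ± 0.053 against control (adjusted p = 0.00598), a call that was lost after median-of-ratios, 75th percentile and quantile scaling (log2 changes of -0.15, -0.13 and -0.11, and adjusted p = 0.0617, 0.0867 and 0.148, within a range of 0.00239 to 0.148 over 23 alternatives). Against SAHA alone the combination was lower by a log2 change of -0.96 ± 0.053 (adjusted p = 1.13e-07). Against sonidegib alone, the combination differed by 0.06 ± 0.053, with a 95% confidence interval of -0.06 to 0.17 (adjusted p = 0.412).

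**Figure D1:**
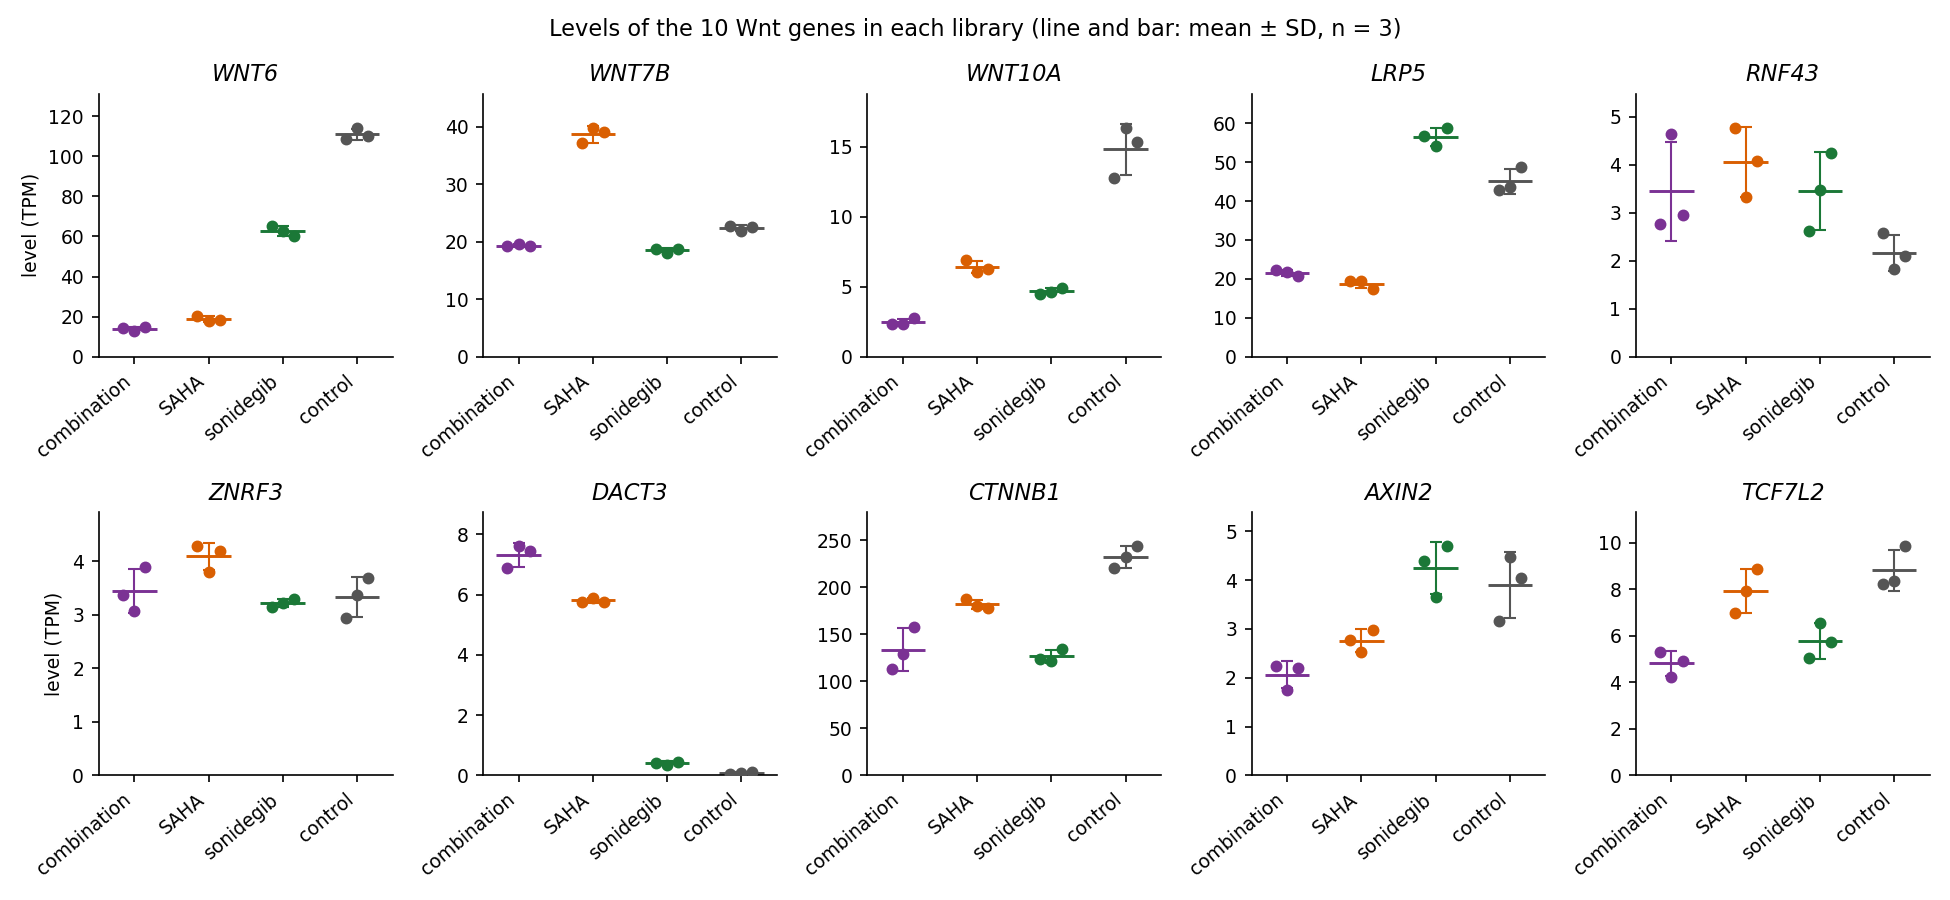
Level of each of the 10 Wnt genes in TPM (vertical axis, linear from 0) in the 12 libraries by group; points are libraries, horizontal lines are means and bars are SD over 3 libraries. WNT6 and WNT10A are highest in control, WNT7B is highest with SAHA alone (37.06 to 39.77 TPM), and DACT3 is at most 0.46 TPM in the libraries without SAHA.

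These shifts changed which ligand led. Over the 19 human Wnt ligand genes, the summed level was 43.5 to 45.7 TPM in the combination, 76.5 to 78.5 TPM with SAHA, 92.1 to 96.0 TPM with sonidegib and 152 to 160 TPM in control. WNT6 made up 29.2% to 32.9% of that sum in the combination, 22.8% to 26.0% with SAHA, 65.0% to 68.0% with sonidegib and 69.8% to 71.6% in control. WNT7B made up 42.1% to 44.0% in the combination, 47.4% to 51.0% with SAHA, 19.6% to 20.3% with sonidegib and 13.7% to 14.99% in control. Thus WNT7B was the leading ligand transcript in all 6 libraries with SAHA and WNT6 in all 6 without it. The ratio of WNT7B to WNT6 was 1.30 to 1.503 in the combination, 1.82 to 2.22 with SAHA, 0.287 to 0.312 with sonidegib and 0.191 to 0.209 in control. The sums were not tested. Among the other ligands WNT4, which acts in mammary duct branching in the mouse, averaged 5.20 ± 0.128 TPM in the combination, 5.16 ± 0.407 TPM with SAHA, 3.15 ± 0.346 TPM with sonidegib and 2.26 ± 0.613 TPM in control (SD, n = 3).

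**Figure D2:**
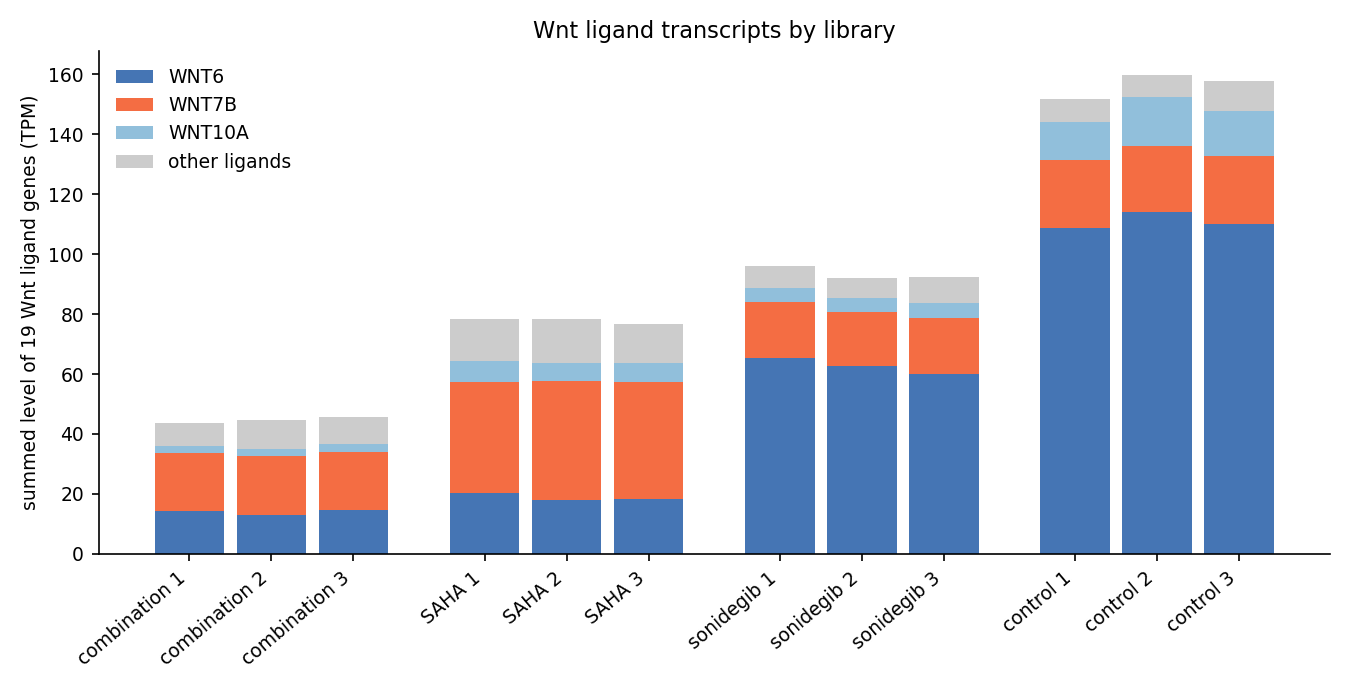
Summed level of the 19 Wnt ligand genes in TPM (vertical axis, linear from 0) in each of the 12 libraries, split into WNT6, WNT7B, WNT10A and the other 16 ligands. WNT6 is the largest part of every sonidegib and control bar, and WNT7B the largest part of every combination and SAHA bar.

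LRP5 (ENSG00000162337, chromosome 11, 68312609 to 68449275) encodes the co-receptor that pairs with Frizzled. It stood at 22.27, 21.84 and 20.76 TPM in the combination, 19.37, 19.35 and 17.40 TPM with SAHA, 56.61, 54.10 and 58.78 TPM with sonidegib, and 42.76, 43.67 and 48.67 TPM in control. No group overlapped another, with sonidegib above control and both SAHA-treated groups below it. LRP5 fell by 1.02 ± 0.068 in the combination (adjusted p = 1.59e-07) and by 1.22 ± 0.068 with SAHA (adjusted p = 5.04e-08), and it rose by 0.32 ± 0.068 with sonidegib (adjusted p = 0.00191). The combination was lower than sonidegib alone, with a log2 change of -1.35 ± 0.068 (adjusted p = 1.65e-07). It was slightly higher than SAHA alone, by 0.20 ± 0.068 (adjusted p = 0.0293), or by 0.32 to 0.34 after the other scalings. That call was lost without SAHA replicate 3 (0.15), without combination replicate 1 (0.18), without combination replicate 2 (0.19) and in a fit of those groups alone, with adjusted p from 0.00335 to 0.107 over 23 alternatives.

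LRP6, the related co-receptor, averaged 6.76 TPM in the combination, 9.14 TPM with SAHA, 4.56 TPM with sonidegib and 5.44 TPM in control. LRP6 rose by 0.64 ± 0.14 with SAHA (adjusted p = 0.00211), opposite in sign to LRP5, and was not called against control in the combination or with sonidegib.

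RNF43 (ENSG00000108375, chromosome 17, 58352500 to 58417595, minus strand) encodes a membrane ubiquitin ligase that removes Frizzled from the cell surface. It stood at 2.76, 4.64 and 2.96 TPM in the combination, 4.77, 3.32 and 4.08 TPM with SAHA, 2.63, 3.48 and 4.25 TPM with sonidegib, and 2.57, 1.82 and 2.10 TPM in control. Control lay lowest without overlap, whereas the 3 treated groups overlapped each other. RNF43 rose by 0.67 ± 0.19 with SAHA (adjusted p = 0.0103). In the combination it rose by 0.48 ± 0.19 (adjusted p = 0.048), a call that was lost in 11 of 22 alternatives, with adjusted p from 0.0265 to 0.201. Without combination replicate 2, the highest of its group, the change was 0.29. The call was also lost without combination replicate 3 (0.55), control replicate 2 (0.40) or control replicate 3 (0.46), and, with the value at 0.48, without SAHA replicate 1, SAHA replicate 3 or sonidegib replicate 2. With sonidegib the change of 0.48 ± 0.19 missed the threshold (adjusted p = 0.0509, 95% confidence interval 0.06 to 0.91) and passed it in 9 of 22 alternatives, among them those without control replicate 1 (0.57), sonidegib replicate 1 (0.62) or combination replicate 2 (0.48), with adjusted p from 0.0269 to 0.177. RNF43 overlaps the far more abundant SUPT4H1 (41.9 to 54.3 TPM by group mean) on the same strand, so reads may have been divided between them, and its values are uncertain.

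ZNRF3 (ENSG00000183579, chromosome 22, 28883592 to 29057487), the closest relative of RNF43, stayed within a narrow range. It stood at 3.37, 3.08 and 3.89 TPM in the combination, 4.28, 3.81 and 4.20 TPM with SAHA, 3.14, 3.22 and 3.30 TPM with sonidegib, and 2.95, 3.37 and 3.69 TPM in control. The SAHA libraries lay above those of control, and the other groups overlapped control. ZNRF3 was called in none of the 6 comparisons by limma. Its unadjusted p was 0.0515 with SAHA, for a change of 0.24 ± 0.11 (adjusted p = 0.0822, 95% confidence interval -0.0018 to 0.47). It passed the threshold after rescaling without ribosomal RNA and mitochondrial genes (0.28, adjusted p = 0.0404) and in a fit without an intensity trend (0.24, adjusted p = 0.0369), in a range of 0.0369 to 0.244 over 22 alternatives. The interval was -0.20 to 0.27 in the combination and -0.27 to 0.20 with sonidegib.

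DACT3 (ENSG00000197380, chromosome 19, 46647612 to 46661138, minus strand) encodes an inhibitor of Dishevelled and is known in colorectal cancer cells as a gene silenced by chromatin marks. It stood at 6.87, 7.60 and 7.46 TPM in the combination, 5.76, 5.90 and 5.76 TPM with SAHA, 0.40, 0.33 and 0.46 TPM with sonidegib, and 0.04, 0.07 and 0.10 TPM in control. The 4 groups did not overlap, and the libraries with SAHA stood apart from those without it. DACT3 rose by 2.96 ± 0.11 in the combination (adjusted p = 1.77e-09) and by 2.67 ± 0.11 with SAHA (adjusted p = 5.56e-09) against control, and by 2.57 ± 0.11 in the combination against sonidegib (adjusted p = 8.01e-08). With 0.1 in place of 1 added to each TPM, the same changes were 5.46, 5.13 and 3.91, because the levels without SAHA were near 0. DACT3 passed the filter only through the libraries with SAHA, where it was higher, so these calls are not independent of the filter. Each was kept in all 22 alternatives, a fit with no filter among them.

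With sonidegib alone DACT3 rose by 0.38 ± 0.11 (adjusted p = 0.0109), to a level under 0.5 TPM. That change was 1.55 with 0.1 and 0.65 with 0.5 added to each TPM, and it was 0.03 (adjusted p = 0.842) after quantile normalization, with adjusted p from 0.000141 to 0.842 over 22 alternatives. The combination exceeded SAHA alone by 0.29 ± 0.11 (adjusted p = 0.0456), a call lost in 10 of 22 alternatives, with adjusted p from 0.0028 to 0.264. Among these were each of the 6 fits that left out a SAHA or combination library, in which the change lay between 0.26 and 0.33. The antisense gene DACT3-AS1 overlaps DACT3 and averaged 0.0933 TPM in the combination, 0.37 TPM with SAHA, 0.0133 TPM with sonidegib and 0 TPM in control. Whether the libraries keep strand was not stated, so reads of the antisense gene and of DACT3 cannot be told apart. The relatives DACT1 and DACT2 were listed at 0 in every group.

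CTNNB1 (ENSG00000168036, chromosome 3, 41194741 to 41260096) encodes beta-catenin, which carries the signal to the nucleus and also links E-cadherin to actin at cell junctions. It stood at 112.73, 129.31 and 157.78 TPM in the combination, 187.33, 179.52 and 177.83 TPM with SAHA, 123.51, 121.35 and 134.63 TPM with sonidegib, and 220.59, 232.21 and 243.30 TPM in control. All treated libraries lay below control, and the combination overlapped sonidegib. CTNNB1 fell by 0.81 ± 0.098 in the combination (adjusted p = 2.29e-05), by 0.35 ± 0.098 with SAHA (adjusted p = 0.00929) and by 0.87 ± 0.098 with sonidegib (adjusted p = 1.92e-05). The combination differed from sonidegib by 0.06 ± 0.098 (adjusted p = 0.655, 95% confidence interval -0.15 to 0.28). Against SAHA alone it was lower by a log2 change of -0.46 ± 0.098 (adjusted p = 0.00238), or -0.24 after quantile normalization. ULK4 overlaps CTNNB1 on the other strand and averaged at most 4.24 TPM in any group.

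AXIN2 (ENSG00000168646, chromosome 17, 65528563 to 65561647, minus strand) is part of the destruction complex and a widely used readout of beta-catenin activity. It stood at 2.24, 1.74 and 2.20 TPM in the combination, 2.78, 2.52 and 2.98 TPM with SAHA, 4.38, 3.65 and 4.69 TPM with sonidegib, and 3.17, 4.48 and 4.05 TPM in control. The combination libraries lay below all others, the SAHA libraries lay below control, and sonidegib overlapped control. AXIN2 fell by 0.67 ± 0.14 in the combination (adjusted p = 0.00104), and the combination was lower than sonidegib alone by a log2 change of -0.78 ± 0.14 (adjusted p = 0.000947). With SAHA alone it fell by 0.37 ± 0.14 (adjusted p = 0.0327). That call was lost in 7 of 22 alternatives, with adjusted p from 0.0105 to 0.121. They included the fits without control replicate 2 (-0.29), control replicate 3 (-0.35), SAHA replicate 1 (-0.38) or SAHA replicate 2 (-0.33). The others were a fit with no filter, a fit of those groups alone, and the rescaling without ribosomal RNA and mitochondrial genes (-0.34). With sonidegib the change was 0.10 ± 0.14 (adjusted p = 0.556, 95% confidence interval -0.20 to 0.40), and the combination against SAHA gave -0.30 ± 0.14 (adjusted p = 0.0866, 95% confidence interval -0.60 to -0.0020).

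TCF7L2 (ENSG00000148737, chromosome 10, 112950250 to 113167678), also called TCF4, encodes a DNA-binding partner of beta-catenin. It stood at 5.29, 4.25 and 4.92 TPM in the combination, 6.97, 7.91 and 8.86 TPM with SAHA, 5.04, 6.57 and 5.75 TPM with sonidegib, and 8.24, 8.36 and 9.85 TPM in control. The groups with sonidegib lay below control and below SAHA, and SAHA overlapped control. TCF7L2 fell by 0.75 ± 0.12 in the combination (adjusted p = 0.000194) and by 0.53 ± 0.12 with sonidegib (adjusted p = 0.00283). With SAHA the change was -0.14 ± 0.12 (adjusted p = 0.341, 95% confidence interval -0.41 to 0.12). The combination was lower than SAHA alone, at -0.61 ± 0.12 (adjusted p = 0.00129), and gave -0.22 ± 0.12 against sonidegib alone (adjusted p = 0.178, 95% confidence interval -0.48 to 0.05).

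Set in order of level, CTNNB1 led in every group. In the combination it was followed by LRP5, WNT7B, WNT6, DACT3, TCF7L2, RNF43, ZNRF3, WNT10A and AXIN2, where TCF7L2 overlapped RNF43 and RNF43 overlapped ZNRF3. With SAHA the order after it was WNT7B, WNT6, LRP5, TCF7L2, WNT10A, DACT3, ZNRF3, RNF43 and AXIN2, where WNT6 overlapped LRP5 and ZNRF3 overlapped RNF43. With sonidegib it was WNT6, LRP5, WNT7B, TCF7L2, WNT10A, AXIN2, RNF43, ZNRF3 and DACT3, where each neighbour from WNT10A to ZNRF3 overlapped the next. In control it was WNT6, LRP5, WNT7B, WNT10A, TCF7L2, AXIN2, ZNRF3, RNF43 and DACT3, where AXIN2 overlapped ZNRF3.

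Counted over the 10 members, 2 rose and 7 fell in the combination against control, where 63.7% of all tested genes were called, 29.7% as higher and 34.0% as lower. With SAHA 3 rose and 5 fell, where 58.7% of all tested genes were called, 31.8% as higher and 26.9% as lower. With sonidegib 2 rose and 5 fell, where 55.3% were called, 26.1% as higher and 29.2% as lower. The libraries of the compared groups did not overlap for 9 members in the combination, 9 with SAHA and 8 with sonidegib, beside 66.9%, 63.7% and 62.3% of all tested genes. In these 3 comparisons most of the 13937 tested genes were called, as most members were. The median log2 change of the members was -0.71 in the combination, -0.25 with SAHA and -0.15 with sonidegib, beside -0.02, 0.05 and -0.02 over all tested genes. In the combination against SAHA 2 members rose and 5 fell, where 50.9% of all tested genes were called, 18.0% as higher and 33.0% as lower, and 8 members did not overlap, beside 57.0% of all. In the combination against sonidegib 1 rose and 4 fell, where 38.5% were called, 17.5% as higher and 21.0% as lower, and 6 members did not overlap, beside 49.6% of all. DACT3, which passed the filter only through the libraries with SAHA, is among the rises in all of these comparisons. The comparisons against control share its libraries. In the combination against SAHA the median of all genes was -0.12 with TPM as deposited, with 2506 genes higher and 4594 lower, and it was -0.01 after median-of-ratios scaling, with 3502 higher and 3735 lower. The 7 member calls in that comparison passed the threshold under all 3 other scalings.

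**Figure D3:**
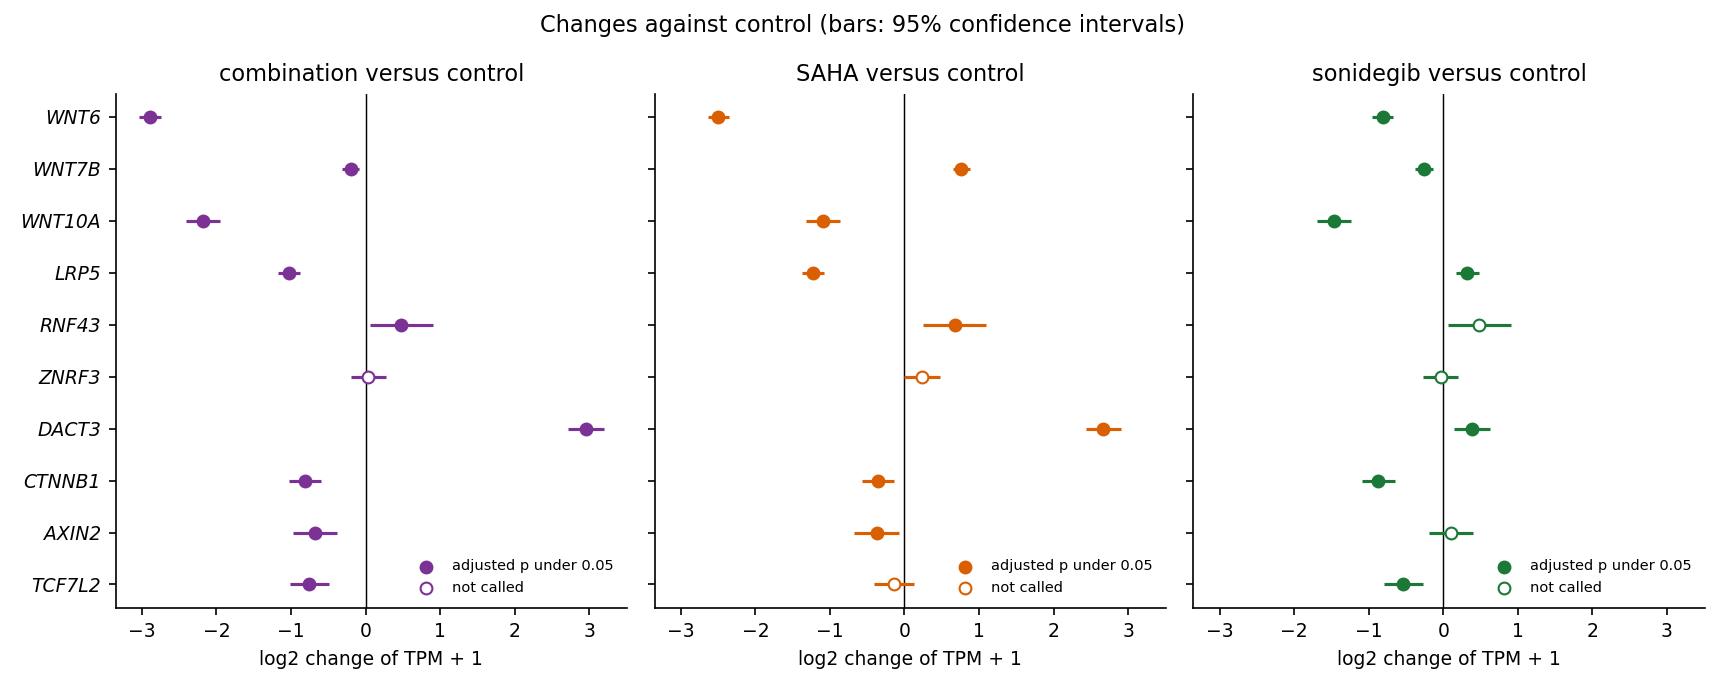
Log2 change of TPM + 1 (horizontal axis) of each of the 10 genes against control in the combination, SAHA and sonidegib groups, with 95% confidence intervals; filled points have an adjusted p under 0.05. WNT6 and WNT10A lie left of 0 in every panel, LRP5 changes sign between SAHA (-1.22) and sonidegib (0.32), and ZNRF3 is open in every panel.

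Whether the response to SAHA differed in cells given sonidegib was asked with the interaction, the SAHA effect with sonidegib (combination against sonidegib) minus the SAHA effect without it (SAHA against control). Of the 10 members 2 had a positive and 1 a negative interaction, where 31.4% of all tested genes were called, 11.8% as positive and 19.7% as negative. WNT7B had the value furthest from 0 among the 3. Its SAHA effect was 0.06 ± 0.053 with sonidegib and 0.76 ± 0.053 without, a difference of -0.70 ± 0.074 (adjusted p = 4.46e-05). For WNT6 the SAHA effect was -2.08 ± 0.066 with sonidegib and -2.50 ± 0.066 without, a difference of 0.41 ± 0.093 (adjusted p = 0.00601). For CTNNB1 it was 0.06 ± 0.098 with sonidegib and -0.35 ± 0.098 without, a difference of 0.41 ± 0.14 (adjusted p = 0.042). The CTNNB1 call was lost in 10 of 22 alternatives, with adjusted p from 0.00303 to 0.0932. They included a fit with no filter, a fit without an intensity trend, and the fits without control replicates 2 or 3, any SAHA replicate, sonidegib replicates 1 or 2, or combination replicate 2, in which the difference lay between 0.38 and 0.44. The interaction sets a SAHA effect within the sonidegib-treated libraries against one within the others. A shift shared by all libraries of a 5S ribosomal RNA set cancels in it on the log2 scale. A difference between the sets in the SAHA effect itself would not cancel, and it cannot be told apart from sonidegib.

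For the other 7 members the interaction was not called. DACT3 had SAHA effects of 2.57 with sonidegib and 2.67 without (difference -0.10 ± 0.15, 95% confidence interval -0.43 to 0.24, adjusted p = 0.671), but with 0.1 added to each TPM the difference was -1.23 (adjusted p = 0.0141, in a range of 0.0141 to 0.998 over 21 alternatives). LRP5 had effects of -1.35 with sonidegib and -1.22 without (difference -0.12 ± 0.097, 95% confidence interval -0.33 to 0.09). WNT10A had effects of -0.72 with sonidegib and -1.09 without (difference 0.37 ± 0.15, adjusted p = 0.0753), which passed the threshold after median-of-ratios, 75th percentile and quantile scaling (0.44, 0.43 and 0.46) and without control replicate 1 (0.47), with adjusted p from 0.0163 to 0.231 over 22 alternatives. RNF43 had effects of -0.01 with sonidegib and 0.67 without (difference -0.68 ± 0.27, adjusted p = 0.0788), called without sonidegib replicate 1 (-0.82) and without combination replicate 2 (-0.86), with adjusted p from 0.0278 to 0.176 over 21 alternatives. For AXIN2, ZNRF3 and TCF7L2 the difference was -0.40, -0.16 and -0.08, with adjusted p = 0.138, 0.449 and 0.764. In all genes the interaction had 1642 positive and 2739 negative calls with TPM as deposited and 2392 and 2396 after median-of-ratios scaling.

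**Figure D4:**
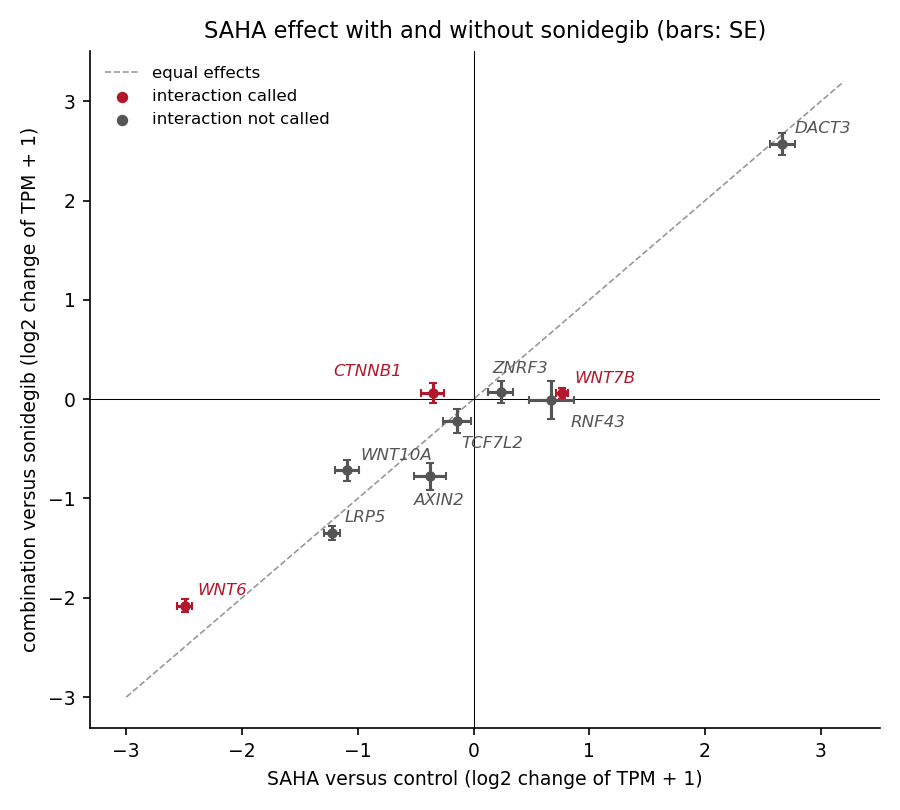
SAHA effect on each of the 10 genes with sonidegib (vertical axis, combination versus sonidegib) against the effect without it (horizontal axis, SAHA versus control), both as log2 change of TPM + 1 with SE bars; the dashed line marks equal effects. WNT7B lies at 0.06 on the vertical and 0.76 on the horizontal axis, WNT6 and CTNNB1 lie above the line, and DACT3 lies close to it.

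A wider list of 86 other Wnt pathway genes was laid beside the members, and 48 of them had a mean of at least 1 TPM. In the combination 14 of the 48 rose and 23 fell, beside 29.7% and 34.0% of all tested genes. With SAHA 23 rose and 11 fell, beside 31.8% and 26.9% of all tested genes. That split depended on the scaling. Median-of-ratios scaling left 17 genes higher, the 75th percentile 18 and quantile normalization 20, each beside 14 lower. With sonidegib 14 rose and 18 fell, beside 26.1% and 29.2% of all tested genes. The median log2 change of the 48 was -0.15 in the combination, 0.24 with SAHA and -0.18 with sonidegib. Of the 16 other ligand genes 4 passed the filter, and R-spondins and LEF1 did not. PORCN, which attaches the lipid to Wnt proteins, and WLS, which carries them to the surface, both rose with SAHA. PORCN averaged 9.31 ± 1.74 TPM in the combination, 13.4 ± 1.34 TPM with SAHA, 10.3 ± 0.451 TPM with sonidegib and 6.23 ± 0.679 TPM in control (SD, n = 3). WLS averaged 48.8 ± 4.52 TPM in the combination, 96.1 ± 6.05 TPM with SAHA, 50.05 ± 0.541 TPM with sonidegib and 79.0 ± 4.61 TPM in control, and it fell by 0.65 ± 0.073 with sonidegib (adjusted p = 1.91e-05). For PORCN the rise was 1.0 ± 0.12 with SAHA (adjusted p = 2.96e-05) and 0.65 ± 0.12 with sonidegib (adjusted p = 0.000903), and its interaction was -1.14 ± 0.17 (adjusted p = 0.000545).

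Among the 11 tested receptor genes 3 rose and 6 fell in the combination, 5 rose and 0 fell with SAHA, and 2 rose and 4 fell with sonidegib. Over all tested genes the shares higher and lower were 29.7% and 34.0% in the combination, 31.8% and 26.9% with SAHA, and 26.1% and 29.2% with sonidegib. The 6 falls in the combination were those of FZD6 (-1.03), ROR1 (-0.72), FZD2 (-0.57), FZD9 (-0.49), FZD1 (-0.40) and RYK (-0.32). FZD7 had the largest rise of the list in the combination, with 14.0 ± 0.969 TPM in the combination, 8.33 ± 0.659 TPM with SAHA, 9.95 ± 0.465 TPM with sonidegib and 5.25 ± 0.394 TPM in control. It rose by 1.26 ± 0.086 in the combination (adjusted p = 1.81e-07) and by 0.81 ± 0.086 with sonidegib (adjusted p = 1.12e-05). The combination exceeded SAHA alone by 0.68 ± 0.086 (adjusted p = 4.95e-05). FZD5 had the largest rise of the list with SAHA (1.33 ± 0.11, adjusted p = 9.63e-07) and FZD4 rose by 0.94 ± 0.15 there (adjusted p = 0.000278). In the combination FZD4 rose by 0.73 ± 0.15 (adjusted p = 0.00149), and against sonidegib alone the combination was higher for FZD5 (0.66 ± 0.11) and FZD3 (0.72 ± 0.19). The FZD3 call was lost in a fit of those groups alone (adjusted p = 0.0546, in a range of 0.00169 to 0.0546 over 23 alternatives), and its change was 0.48 without combination replicate 3. Against control FZD3 was not called in the combination (0.44 ± 0.19, adjusted p = 0.0603). LGR6, an R-spondin receptor, averaged 1.43 ± 0.178 TPM in the combination, 2.87 ± 0.217 TPM with SAHA, 2.60 ± 0.216 TPM with sonidegib and 5.76 ± 0.556 TPM in control, and it fell by 1.48 ± 0.11 in the combination (adjusted p = 5.13e-07).

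DKK1, a secreted inhibitor that blocks LRP5 and LRP6, moved in opposite directions with the single drugs. It stood at 2.73, 0.57 and 0.82 TPM in the combination, 9.73, 9.19 and 8.10 TPM with SAHA, 0.22, 0.64 and 0.39 TPM with sonidegib, and 4.54, 5.13 and 3.42 TPM in control. The SAHA libraries lay above control, and those of the groups with sonidegib lay below it. DKK1 fell by 1.27 ± 0.28 in the combination (adjusted p = 0.00176), rose by 0.91 ± 0.28 with SAHA (adjusted p = 0.0143) and fell by 1.92 ± 0.28 with sonidegib (adjusted p = 0.000125), the last by 3.17 with 0.1 added to each TPM. Set against SAHA alone, the combination gave -2.18 ± 0.28 (adjusted p = 5.47e-05). NKD1, a Dishevelled antagonist, averaged 1.13 ± 0.148 TPM in the combination, 1.43 ± 0.211 TPM with SAHA, 1.10 ± 0.477 TPM with sonidegib and 0.43 ± 0.208 TPM in control. NKD1 passed the filter only through the treated libraries, where it was higher, so its calls against control are not independent of that filter. It rose by 0.58 ± 0.19 in the combination (adjusted p = 0.021), by 0.77 ± 0.19 with SAHA (adjusted p = 0.00496) and by 0.54 ± 0.19 with sonidegib (adjusted p = 0.0333), the last by 1.21 with 0.1 added to each TPM. The call with sonidegib was lost without control replicate 2 (0.42) or sonidegib replicate 3 (0.37), in a fit of those groups alone, and after quantile normalization (0.26), with adjusted p from 0.0146 to 0.25 over 22 alternatives.

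Of the kinase genes of the destruction complex, GSK3B rose by 0.77 ± 0.081 in the combination (adjusted p = 6.8e-06), by 1.0 ± 0.081 with SAHA (adjusted p = 9.59e-07) and by 0.23 ± 0.081 with sonidegib (adjusted p = 0.0312). GSK3A fell by 0.32 ± 0.052 in the combination (adjusted p = 0.00021), rose by 0.17 ± 0.052 with SAHA (adjusted p = 0.0137) and fell by 0.60 ± 0.052 with sonidegib (adjusted p = 2.11e-06). GSK3B averaged 30.8 ± 3.22 TPM in the combination, 36.1 ± 1.09 TPM with SAHA, 20.8 ± 0.652 TPM with sonidegib and 17.6 ± 1.35 TPM in control. CSNK1A1, another kinase gene of that list, fell by 0.48 ± 0.088 with SAHA (adjusted p = 0.000622). It rose by 0.30 ± 0.088 with sonidegib (adjusted p = 0.013) and was not called in the combination (0.06 ± 0.088, adjusted p = 0.578, 95% confidence interval -0.13 to 0.25). Of the nuclear factors, BCL9L, a beta-catenin co-activator, fell by 0.94 ± 0.064 with SAHA (adjusted p = 2.43e-07), and the co-repressor TLE2 rose by 0.47 ± 0.068 with sonidegib (adjusted p = 0.000125). The relatives of TLE2 were split with sonidegib. TLE1 rose by 0.28 ± 0.085, whereas TLE3 fell by 0.27 ± 0.088 and TLE4 by 0.34 ± 0.13 (adjusted p = 0.0144, 0.0211 and 0.0371). TCF7 averaged 9.15 ± 0.261 TPM in the combination, 16.02 ± 0.989 TPM with SAHA, 15.7 ± 0.611 TPM with sonidegib and 14.6 ± 0.214 TPM in control, and its interaction was -0.84 ± 0.093 (adjusted p = 5.99e-05). PYGO2, which binds BCL9 proteins, had an interaction of 0.27 ± 0.089 (adjusted p = 0.0416), a call lost in 11 of 22 alternatives (adjusted p from 0.01 to 0.0908). They were the fit without ribosomal RNA and mitochondrial genes (0.24) and the fits that left out any library other than control replicate 1 and sonidegib replicate 3 (0.23 to 0.28).

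Among the 4 tested genes listed as transcriptional targets, which many other signals also control, all 4 fell in the combination, 3 fell with SAHA, and 3 fell and 1 rose with sonidegib. Of all tested genes 34.0% fell in the combination, 26.9% with SAHA and 29.2% with sonidegib. The fall of CD44 in the combination was small, at -0.13 ± 0.040 (adjusted p = 0.0137). The targets AXIN2, RNF43 and ZNRF3 are members and not in this count. In the combination and with SAHA, AXIN2 fell, RNF43 rose and ZNRF3 was not called. With sonidegib none of these members was called. Genes listed under another role are not in this count either, even where Wnt signalling also controls them. Of the genes given above under other roles, NKD1 rose in all 3 comparisons with control. DKK1 rose with SAHA and fell with sonidegib and in the combination. CCND1, which encodes cyclin D1, averaged 16.9 ± 2.29 TPM in the combination, 37.2 ± 4.30 TPM with SAHA, 51.7 ± 1.74 TPM with sonidegib and 70.8 ± 3.74 TPM in control. It fell by 2.01 ± 0.098 in the combination, with changes of -1.10 ± 0.098 against SAHA and -1.57 ± 0.098 against sonidegib (adjusted p = 1.42e-08, 3.97e-06 and 7.44e-07). MYC fell by 1.35 ± 0.091 in the combination (adjusted p = 1.79e-07) and by 1.28 ± 0.091 with SAHA (adjusted p = 3.48e-07), and the combination set against sonidegib alone gave -1.03 ± 0.091 (adjusted p = 8.5e-06). CD44, a cell surface receptor for hyaluronan, averaged 931 ± 39.9 TPM in the combination, 438 ± 9.92 TPM with SAHA, 1384 ± 21.8 TPM with sonidegib and 1020 ± 23.3 TPM in control. It fell by 1.22 ± 0.040 with SAHA (adjusted p = 1.34e-09), the combination exceeded SAHA alone by 1.09 ± 0.040 (adjusted p = 1.19e-08), and its interaction was 0.65 ± 0.057 (adjusted p = 1.34e-05).

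**Figure D5:**
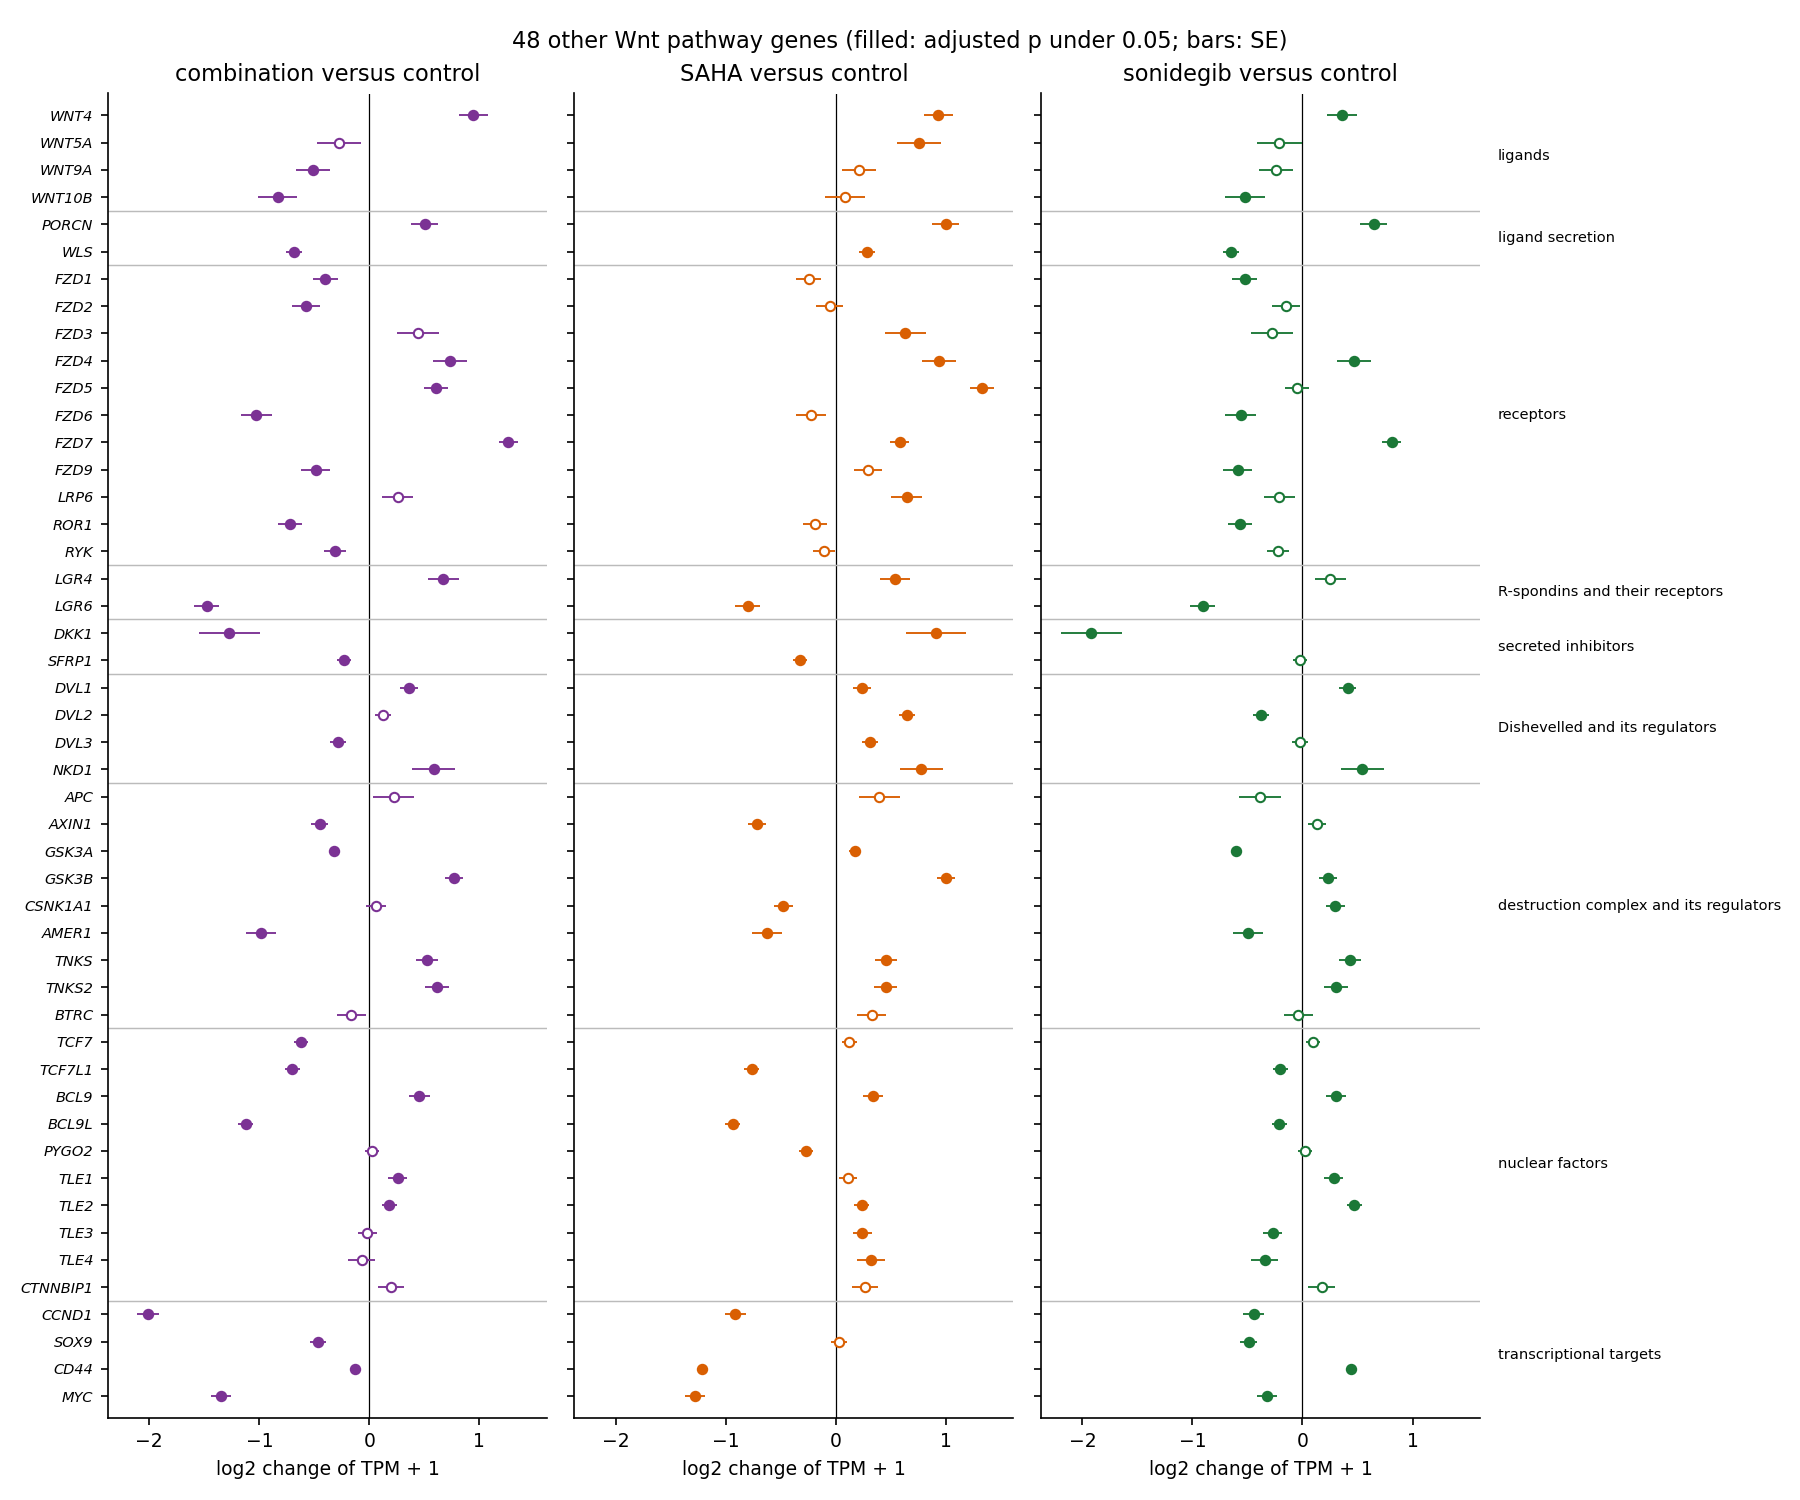
Log2 change of TPM + 1 with SE (horizontal axis) against control in the combination, SAHA and sonidegib groups for the 48 other Wnt pathway genes that passed the filter, grouped by role; filled points have an adjusted p under 0.05. DKK1 lies right of 0 with SAHA (0.91) and left of it with sonidegib (-1.92), and the lowest value in the combination is that of CCND1 (-2.01).

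For each member the 3 protein-coding genes with the most similar levels were sought among 11994 others by Pearson's r of log2(TPM + 1) over the 12 libraries, as a description. Since the libraries fall into 4 groups, a high r says mainly that the group means are spaced alike on that log scale. WNT6 was most like LRRC61 (0.9956), TFAP4 (0.9955) and PAX7 (0.9945), and WNT10A was most like RRS1 (0.994), HENMT1 (0.993) and FOXI1 (0.992). WNT7B was most like DNAJB2 (0.9945), the basal keratin gene KRT17 (0.993) and GPRC5A (0.989). DACT3 was most like BMP6 (0.994), NKX6-1 (0.993) and JUN (0.992), and LRP5 most like TRIB3 (0.993), ACOT2 (0.990) and SCRN1 (0.990). CTNNB1 was most like COPS9 (0.990), SNX12 (0.983) and CNOT9 (0.9795). For AXIN2, TCF7L2, ZNRF3 and RNF43 the highest r was 0.948 (KCNK5), 0.961 (ARMCX5), 0.947 (PALLD) and 0.937 (TNIK).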

How the data were processed

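RNA was extracted from MDA-MB-468 cells with TRIzol and sequenced on standard Illumina libraries, per the labels' protocols. The deposited values are TPM with 2 decimals, which the authors had computed per gene and corrected for length. The submitters' processing notes name Bowtie2 2.4.1 and GRCh38, and the quantifier, annotation, strandedness and filters are not given in the sources used here. Groups and replicate numbers came from the labels. Coordinates and gene types came from GENCODE release 29, in which 58611 identifiers were found.

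The fit of log2(TPM + 1) used limma 3.58.1 under R 4.3.3, with 4 group means over 12 libraries with 8 residual degrees of freedom and variances moderated with an intensity trend. Tests were two-sided. The code of the fit was also run on simulated normal values in which few genes changed. That run cannot show how well the fit suits these data, where most genes were called against control. The members, the wider list and the naming rule (up to 4 rises and 4 falls of that list per comparison with control, 2 and 2 otherwise) were chosen with earlier results of these data known. LRP6, CSNK1A1, TLE1, TLE3, TLE4 and the receptors that fell in the combination were named after their values were seen. Alternatives were other pseudocounts, filters and scalings, a replicate block, no trend, the compared groups alone, and each library left out.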

Additional observations from a re-analysis of the deposited data

Results flagged for a closer look

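For 3 of the 10 genes the effect of SAHA differed between cells with and without sonidegib by the interaction test of limma, each as the effect with sonidegib minus the effect without. The difference was -0.70 on the log2 scale for WNT7B (adjusted p = 4.46e-05), 0.41 for WNT6 (adjusted p = 0.00601) and 0.41 for CTNNB1 (adjusted p = 0.042). WNT7B rose with SAHA alone and had a SAHA effect of 0.06 with sonidegib, whose 95% confidence interval ran from -0.06 to 0.17. WNT6 fell with SAHA in both settings. Only the WNT7B and WNT6 calls held under every alternative that gave a value. The libraries with and without sonidegib also differed in the listing of 5S ribosomal RNA, and the part of that difference in these results was not tested.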

How the results depend on the processing

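Over all members, comparisons and alternatives no called change turned its direction. With libraries left out in turn 686 member values kept their side of the threshold, 28 lost the call and 6 gained it; with the other alternatives the numbers were 596, 18 and 12. Of the values picked by the naming rule from the wider list 797 kept their side and 16 lost it. Other values given for that list, such as those of LRP6 and the SAHA effects on GSK3A and DKK1, were not followed through the alternatives. With a filter at a mean of 5 TPM, which leaves 6 of the 10 members in the test, the number of members called was 5 instead of 8 for SAHA against control and 3 instead of 5 for the combination against sonidegib. In the combination against control the 6 members left in the test kept their calls, and those of RNF43, DACT3 and AXIN2 dropped out with the filter. Of 18 pairs of libraries with the same replicate number only 1 had deviations from the group means correlating above 0.1 (range -0.059 to 0.11). Pairs with different numbers ranged from -0.107 to 0.0966. With 3 libraries per group this cannot show whether the numbers pair the libraries. With the replicate block, members called were 8 for SAHA, 7 for sonidegib and 8 for the combination against control, and the block ended the calls of RNF43 in the combination against control (0.48, adjusted p = 0.0708, range 0.0265 to 0.201) and of DACT3 in the combination against SAHA (0.29, adjusted p = 0.0539, range 0.0028 to 0.264). TPM carry no depth, so values under about 0.5 TPM, such as DACT3 without SAHA, have unknown counting error.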
